A study of Capra hircus with 72 samples.

Results

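The genes described here are 10 of the 21343 genes in the deposited count table, picked by gene name: CHAT, SLC5A7, SLC18A3, ACHE, ISL1, PRPH, CHODL, CHRM2, CHRM3 and CHRM4. They make, package, break down or sense acetylcholine, or mark motor neurons. The study kept female goats (Capra hircus) in air with raised carbon dioxide, a state called hypercapnia, and sequenced RNA of 4 brain regions. Mild hypercapnia was 14 days at 6% inspired CO2, moderate hypercapnia was 7 days at 6% followed by 7 days at 8%, and room air was the control. The regions were, in the medulla, the retrotrapezoid nucleus (RTN), the solitary tract nucleus (NTS) and the ventral respiratory column (VRC), and in the forebrain the medial prefrontal cortex (mPFC). Each of the 12 combinations of region and condition had 6 libraries, 72 in all, and the design text gives 6 animals per condition, so regions of a condition share animals. The labels do not tie a library's number to an animal. The labels record no transgene or other treatment, and each library is from bulk tissue of a region, which mixes cell types.

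Acetylcholine is made from choline and acetyl-CoA by choline acetyltransferase (CHAT), choline is taken back up by SLC5A7, and SLC18A3 loads the transmitter into vesicles. Acetylcholinesterase (ACHE) ends the signal, and muscarinic receptors such as CHRM2, CHRM3 and CHRM4 are among the receptors that sense it. In the medulla the densest cholinergic cells are motor neurons of cranial nerves: the dorsal motor nucleus of the vagus borders the NTS, the nucleus ambiguus lies in the VRC, and the facial motor nucleus adjoins the RTN. How much of these nuclei each piece of tissue held was not measured.

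Libraries held 12838991 to 31884742 counted reads. Levels below are in CPM (each count scaled to a fixed library total, after adjusting totals for library composition) and, where genes are compared with each other, in RPKM, which also divides by gene length. The summed level of 3 cortical excitatory neuron markers was 655 to 1278 CPM in room air mPFC libraries and at most 82.9 CPM in any room air brainstem library. In bulk tissue, fewer cells of a type and less RNA per cell cannot be told apart. Within their own regions 3 libraries stood apart for the cholinergic genes. NTS room air 1 was the lowest of 18 NTS libraries for all 10 genes, RTN moderate 5 was the lowest of 18 for 8 genes, and VRC mild 3 was the highest of 18 for 6 genes.

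**Figure D1:**
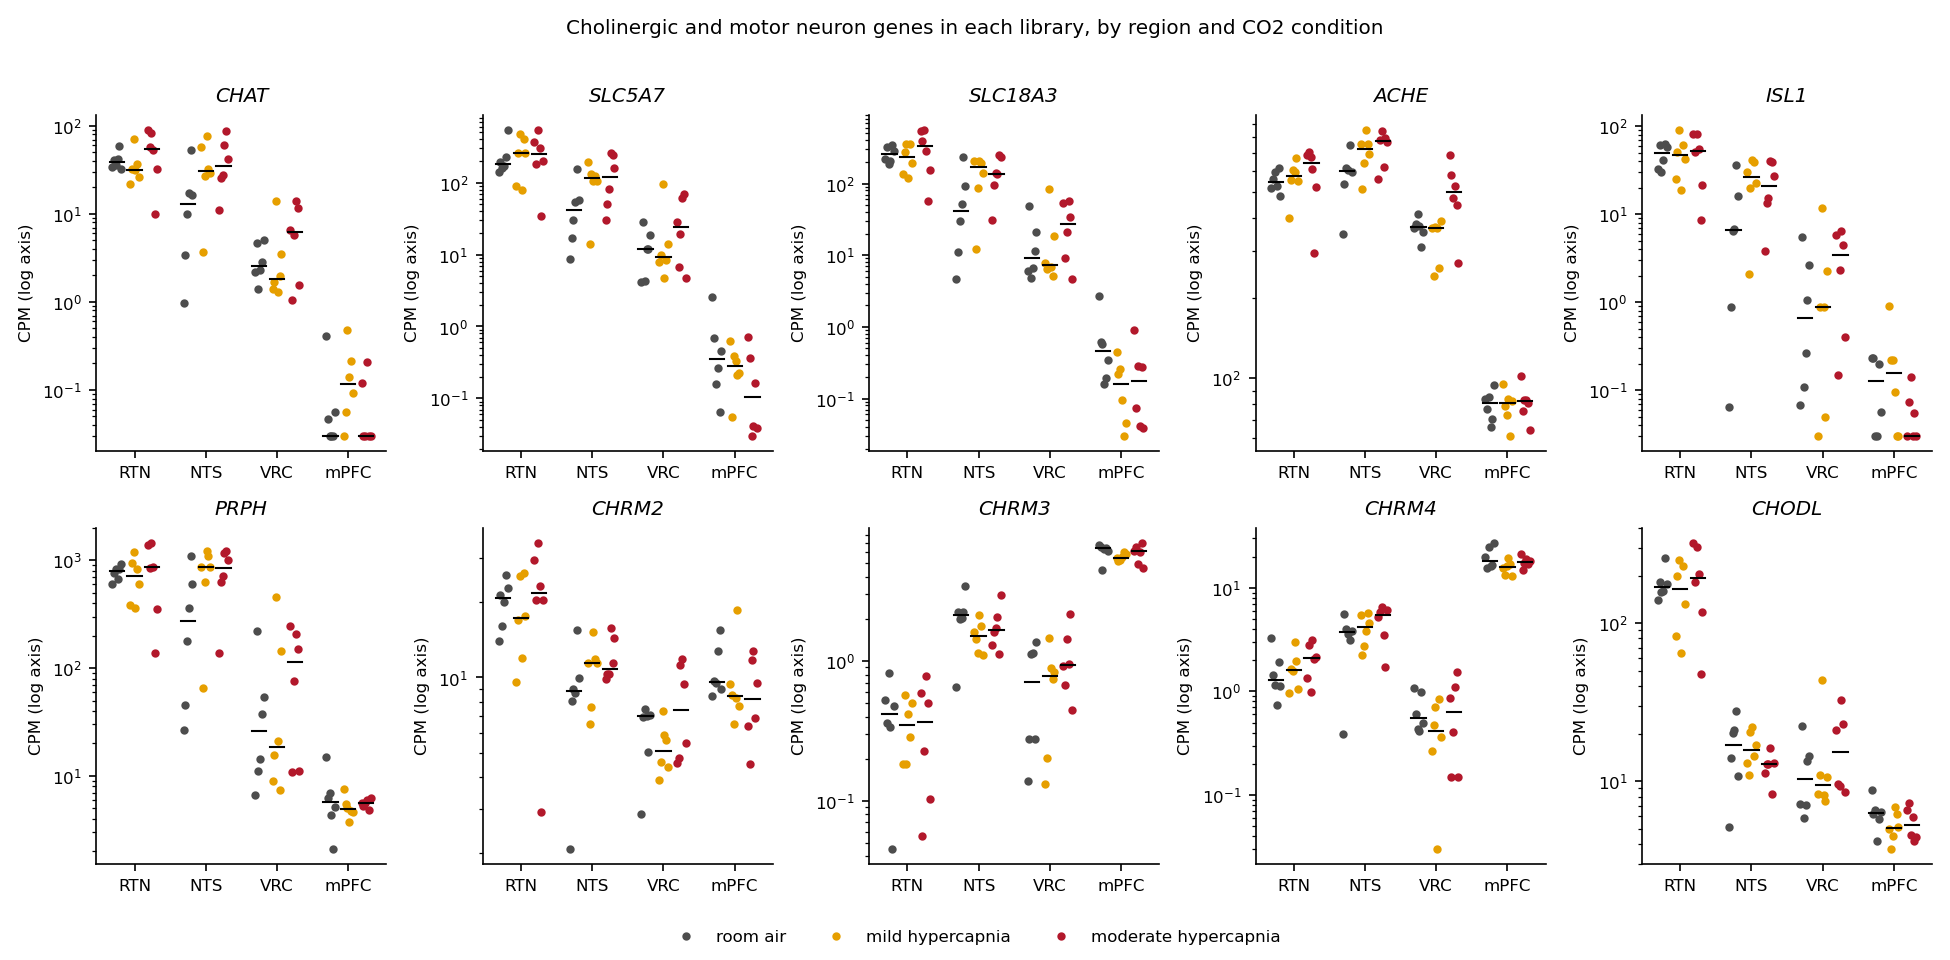
CPM on a log axis for each of the 72 libraries, 1 panel per gene; regions run RTN, NTS, VRC and mPFC, colours are conditions, black bars are medians of 6 libraries, and values below 0.03 CPM are drawn at 0.03. For CHAT the room air medians were 38.6 CPM in RTN, 13 in NTS, 2.58 in VRC and 0.0234 in mPFC, and single libraries of NTS and VRC scatter widely around theirs.

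In room air, the 3 genes of acetylcholine synthesis and transport were highest in RTN, then NTS, then VRC, and were near 0 in mPFC. CHAT, on chromosome 28, had a lowest, median and highest level of 32.2, 38.6 and 59.6 CPM in RTN, 0.971, 13 and 53.5 CPM in NTS, and 1.39, 2.58 and 5.02 CPM in VRC. In mPFC the 6 room air libraries held 9 CHAT reads in all and 3 of them held none; a count of 0 there allows up to 0.124 to 0.234 CPM over the 8 of 18 mPFC libraries at 0, counting error only. The RTN libraries lay close together and above all VRC libraries, whereas the NTS libraries spread from the VRC level up into the RTN range. CHAT was 3.75 ± 0.59 log2 units higher in RTN than in VRC (SE; edgeR quasi-likelihood adjusted p = 1.17e-04) and 2.44 ± 0.57 higher in NTS than in VRC (adjusted p = 0.002). The RTN to NTS difference, 1.32 ± 0.53 with a 95% interval of 0.28 to 2.35, did not pass in this fit (adjusted p = 0.077), which treats the regions' libraries as independent although regions share animals. The call depended on the method: limma gave 1.87 (adjusted p = 6.68e-05) and edgeR's newer quasi-likelihood form 1.30 (adjusted p = 0.016). With the replicate number as a block, the edgeR difference was 1.76 (adjusted p = 0.011). Without NTS room air 5, the library with 53.5 CPM, it was 2.13 and passed (adjusted p = 0.0022).

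SLC5A7, the choline transporter on chromosome 11, had 140.5, 182 and 538 CPM in RTN (lowest, median and highest), 8.61, 41.9 and 155 CPM in NTS, 4.16, 12 and 28.2 CPM in VRC, and 0.0655, 0.358 and 2.57 CPM in mPFC. A single RTN library stood well above the other 5, and RTN and NTS overlapped only through the top NTS library. RTN exceeded NTS by 2.19 ± 0.57 log2 units (adjusted p = 0.007) and NTS exceeded VRC by 1.99 ± 0.58 (adjusted p = 0.01). SLC18A3, the vesicular transporter, had 186, 255 and 350.4 CPM in RTN, 4.6, 40.7 and 232 CPM in NTS, 4.82, 9.07 and 48.7 CPM in VRC, and 0.158, 0.46 and 2.69 CPM in mPFC. Its NTS libraries ran nearly the whole way between the VRC and RTN levels, with 1 of them inside the RTN range. The differences were 1.95 ± 0.66 for RTN over NTS (adjusted p = 0.035) and 2.07 ± 0.67 for NTS over VRC (adjusted p = 0.02). SLC18A3 neighbours CHAT on chromosome 28 in RefSeq, and how reads over any overlap of the pair were counted is not given in the sources used here. Such reads cannot be told apart, also in the correlation of the pair below.

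ACHE, the enzyme that breaks acetylcholine down (chromosome 25), followed a flatter pattern. It had 480.4, 543 and 616 CPM in RTN, 349, 598 and 749 CPM in NTS, 310.3, 369 and 414 CPM in VRC, and 65.6, 80.5 and 94.3 CPM in mPFC. All brainstem libraries lay above all mPFC libraries, and RTN and NTS overlapped fully. RTN and NTS differed by -0.02 ± 0.12 log2 units with a 95% interval of -0.26 to 0.22 (adjusted p = 0.92), while VRC was lower than both, by 0.61 ± 0.12 in the RTN comparison (adjusted p = 0.0015) and 0.63 ± 0.12 in the NTS comparison (adjusted p = 3.58e-04). In mPFC, where CHAT was close to 0, the median ACHE level was 40.3 RPKM, against 0.0125 RPKM for CHAT.

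The motor neuron genes split. ISL1, a transcription factor of motor neuron development (chromosome 20), had 29.8, 49.9 and 63 CPM in RTN, 0.0647, 6.63 and 36.2 CPM in NTS, 0.0683, 0.654 and 5.56 CPM in VRC, and 0, 0.127 and 0.234 CPM in mPFC. NTS libraries covered the widest range, with the lowest near the VRC minimum and the highest inside the RTN range. ISL1 was 2.14 ± 0.74 log2 units higher in RTN than in NTS (adjusted p = 0.039) and 2.74 ± 0.81 higher in NTS than in VRC (adjusted p = 0.012). PRPH, the intermediate filament peripherin of motor and sensory neurons (chromosome 5), had 607, 799 and 925 CPM in RTN, 26.7, 272 and 1101 CPM in NTS, 6.62, 26.1 and 223 CPM in VRC, and 2.09, 5.69 and 14.9 CPM in mPFC. The top NTS library exceeded every room air RTN library. RTN and NTS were not separated for PRPH, at 1.04 ± 0.73 with an interval of -0.39 to 2.47 (adjusted p = 0.34), whereas NTS exceeded VRC by 2.72 ± 0.77 (adjusted p = 0.0088).

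CHODL, the membrane protein chondrolectin, a marker of fast motor neurons in mouse (chromosome 1), had a level in RTN set apart from the other regions. It had 139.8, 169 and 258 CPM in RTN, 5.12, 17.1 and 27.9 CPM in NTS, 5.89, 10.4 and 22.4 CPM in VRC, and 4.21, 6.27 and 8.83 CPM in mPFC. No RTN library overlapped any library of the other regions, and those other regions overlapped one another. CHODL was 3.48 ± 0.33 log2 units higher in RTN than in NTS, 11.2-fold (adjusted p = 1.20e-07), and 3.95 ± 0.34 higher in RTN than in VRC (adjusted p = 5.43e-08). NTS and VRC differed by 0.47 ± 0.31 with an interval of -0.14 to 1.09, which did not pass (adjusted p = 0.26). CHODL was also set against CHAT in the same library. The mean log2 ratio of CHODL to CHAT in RTN was 2.13 in room air (1.93 to 2.46 over 6 libraries), 2.06 in mild (1.03 to 2.64) and 1.91 in moderate hypercapnia (1.67 to 2.25). In NTS it was 0.67 in room air (-0.94 to 2.28), -0.79 in mild (-2.12 to 1.53) and -1.50 in moderate hypercapnia (-3.39 to 0.04). The ratios of RTN and NTS overlapped in room air and mild hypercapnia and did not in moderate hypercapnia. These ratios are a description and were not tested. The ratio was not taken in VRC. Room air medians of CHODL and CHAT were 10.4 and 2.58 CPM in VRC, 169 and 38.6 CPM in RTN, and 17.1 and 13 CPM in NTS. Relative to CHAT, a high CHODL is thus not shown to be particular to RTN.

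Across all 4 regions the muscarinic receptors did not follow the synthesis genes, although the CHRM2 medians had the same order within the brainstem. CHRM2, an inhibitory receptor that also serves as an autoreceptor on cholinergic cells (chromosome 4), had 14, 20.7 and 25.7 CPM in RTN, 2.07, 8.82 and 15.4 CPM in NTS, 2.87, 7 and 7.5 CPM in VRC, and 8.42, 9.6 and 15.5 CPM in mPFC. RTN was 1.21 ± 0.28 log2 units above NTS (adjusted p = 0.0031) and 0.92 ± 0.28 above mPFC (adjusted p = 0.0075), and every VRC library lay below every mPFC library (-0.81 ± 0.29, adjusted p = 0.018, and 0.0513 without mPFC room air 5). NTS and mPFC were not separated (-0.29 ± 0.28, interval -0.84 to 0.26, adjusted p = 0.42). Within the brainstem RTN was also 1.73 ± 0.29 above VRC (adjusted p = 2.22e-04), and NTS and VRC were not separated (0.52 ± 0.29, adjusted p = 0.17).

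CHRM3 and CHRM4 were highest in mPFC, where CHAT was lowest. CHRM4, an inhibitory receptor (chromosome 15), had 0.734, 1.29 and 3.25 CPM in RTN, 0.388, 3.72 and 5.58 CPM in NTS, 0.419, 0.551 and 1.09 CPM in VRC, and 15.4, 18.2 and 27 CPM in mPFC. CHRM3, an excitatory receptor (chromosome 28), had 0.0449, 0.416 and 0.814 CPM in RTN, 0.647, 2.14 and 3.45 CPM in NTS, 0.137, 0.7 and 1.36 CPM in VRC, and 4.48, 6.43 and 6.72 CPM in mPFC. For both receptors every mPFC library lay above every brainstem library. Among the brainstem regions NTS was highest: RTN was lower than NTS by -2.24 ± 0.47 log2 units for CHRM3 (adjusted p = 0.0011) and -1.04 ± 0.38 for CHRM4 (adjusted p = 0.05, under the threshold before rounding), and RTN and VRC were not separated for CHRM3 (-0.74 ± 0.49, interval -1.70 to 0.21, adjusted p = 0.33).

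**Figure D2:**
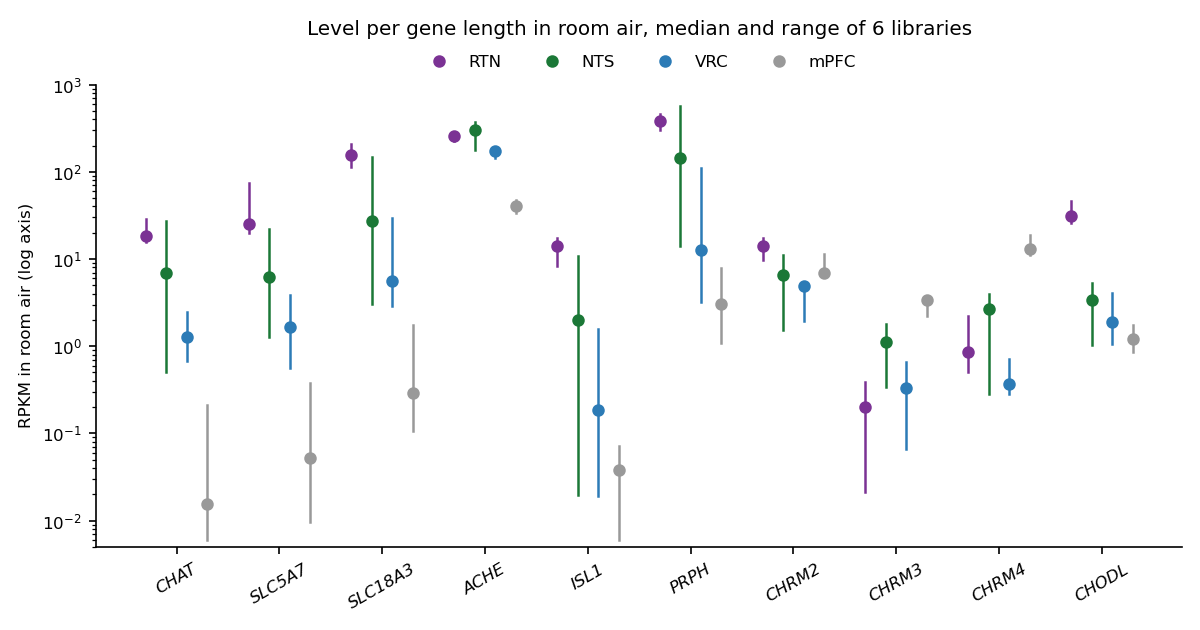
Median RPKM (points) and range (lines) of the 6 room air libraries of each region, on a log axis, for the 10 genes; values under 0.006 RPKM are drawn at 0.006. Per length, PRPH (386 RPKM), ACHE (256) and SLC18A3 (157) had the highest RTN medians, and CHRM4 (13.1 RPKM) and CHRM3 (3.38 RPKM) had their highest medians in mPFC.

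Per length, the genes of the pathway spanned a wide range in room air RTN, with median levels of 386 RPKM for PRPH, 256 for ACHE, 157 for SLC18A3, 31.5 for CHODL, 25 for SLC5A7, 18.5 for CHAT, 14.3 for CHRM2, 14.2 for ISL1, 0.849 for CHRM4 and 0.2 for CHRM3. In NTS the order at the top was different, with ACHE at 304 RPKM above PRPH at 145 and SLC18A3 at 27. In VRC ACHE was at 173 RPKM, and no other of the genes was above the 12.8 RPKM of PRPH.

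Differences between regions were common among all genes, so counts of passing members are set beside them. Of the 15700 genes tested in room air, all 10 members among them, 54.8% passed between RTN and mPFC, where 10 members passed, 8 higher in RTN and 2 lower. Between NTS and mPFC 9 members passed, 7 higher and 2 lower, against 48.3% of all genes, and between VRC and mPFC 10 passed, 7 higher and 3 lower, against 60.3%. Within the brainstem, RTN against VRC gave 9 members, all higher in RTN, against 14.7% of all genes (9.1% higher). RTN against NTS gave 7 members, 5 higher and 2 lower, against 21.6%, and NTS against VRC gave 8, all higher in NTS, against 33% (17.6% higher). Members whose 6 libraries of both regions did not overlap numbered 9 for RTN against mPFC (35.9% of all genes), 7 for NTS against mPFC (24.1%) and 7 for VRC against mPFC (37.5%). Within the brainstem they numbered 8 for RTN against VRC (9.22% of all genes), 1 for RTN against NTS, CHODL (7.45%), and 0 for NTS against VRC (8.94%). The median member fold was 3.76 log2 units for RTN against VRC and 1.26 for RTN against NTS, beside 0.00 and 0.01 over all genes tested. Leaving out any 1 library of the 4 room air groups left 4 to 7 members passing between RTN and NTS. The count fell to 4 without NTS room air 2, 3, 4 or 6 or RTN room air 2, 5 or 6. The calls lost for RTN against NTS were those of CHRM4 (21 of 24 fits, adjusted p up to 0.13), ISL1 (8 fits, up to 0.083) and SLC18A3 (7 fits, up to 0.08). Between NTS and VRC 5 members passed without NTS room air 5, when SLC5A7 (1.31, adjusted p = 0.06), SLC18A3 (1.18, adjusted p = 0.14) and ISL1 (1.87, adjusted p = 0.066) no longer did. Without VRC room air 2, ISL1 and CHODL no longer passed for VRC against mPFC (adjusted p = 0.072 and 0.092).

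The rest of the pathway was read from lists drawn up by function, with earlier results of these data known. Of 15 other motor neuron genes tested in room air, 10 were higher in RTN than in NTS and none was lower, beside 11.2% and 10.4% of all genes, and 8 were higher in RTN than in VRC and none was lower, beside 9.1% and 5.57%. NEFL, the light neurofilament, averaged 13244 ± 2674 CPM in RTN against 3785 ± 2540.4 CPM in NTS (1.85 ± 0.27 log2 units, adjusted p = 3.09e-05). LHX3, a transcription factor of somatic motor neurons in mouse, averaged 0.902 ± 0.545 CPM in RTN and 1.68 ± 0.697 CPM in VRC, and had no read in the 6 room air NTS libraries; over the 17 NTS libraries at 0, that allows up to 0.107 to 0.216 CPM.

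Among the 8 nicotinic receptor subunits tested, 3 were lower in RTN than in NTS and 0 higher, and 4 were higher in NTS than in VRC and 0 lower; of all genes 10.4% were lower in RTN than in NTS and 17.6% higher in NTS than in VRC. The subunit CHRNA3 averaged 2.35 ± 0.309 CPM in RTN against 24.1 ± 13.4 CPM in NTS (SD, 6 libraries a region), a difference of -3.31 ± 0.52 log2 units (adjusted p = 6.51e-05), and CHRNB4 averaged 8.48 ± 1.69 CPM in RTN against 22.9 ± 12.3 CPM in NTS (-1.39 ± 0.29, adjusted p = 0.0012). Both subunits were highest in NTS of the 3 brainstem regions, where CHAT was intermediate. The muscarinic receptor CHRM1 averaged 1.47 ± 0.76 CPM in RTN against 2.73 ± 1.08 CPM in NTS (-0.81 ± 0.29, adjusted p = 0.0488). Of 15 other genes of acetylcholine handling tested, 1 was higher and 3 were lower in RTN than in NTS, beside 11.2% and 10.4% of all genes, so the share that passed was near the background. Among them BCHE, the related butyrylcholinesterase, averaged 21.8 ± 4.92 CPM in RTN against 39.9 ± 10.4 CPM in NTS (-0.83 ± 0.23, adjusted p = 0.012).

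Hypercapnia gave no member past the threshold in any of the 12 comparisons between conditions within a region. Of all genes tested, 0.00649% passed in NTS moderate hypercapnia against room air, which is 1 of 15418 genes and no member, and 0% passed in the other 11. In mPFC, CHAT, SLC5A7, SLC18A3 and ISL1 were too low to test, as was CHRM3 in RTN. At an unadjusted p under 0.05 the edgeR test gave 2 members in NTS moderate against room air, where 13.4% of genes were under it, and 1 in VRC moderate against room air (5.67% of genes). It also gave 1 in VRC moderate against mild (15.5%) and 1 in mPFC mild against room air (3.45%), and 0 members in the other 8 comparisons. Of all genes in those 8, the share under it was 4.66% in NTS mild against room air and 4.02% in NTS moderate against mild, 6.23% in VRC mild against room air, and 2.1% in mPFC moderate against room air and 4.71% in mPFC moderate against mild. In RTN it was 6.59% in mild and 7.38% in moderate against room air and 10.6% in moderate against mild. In none of the 12 did a member's libraries separate fully between the conditions, against 0.104%, 0.435% and 0.402% of all genes in NTS (mild against room air, moderate against room air, moderate against mild), 0.418%, 0.196% and 0.627% in VRC, 0.345%, 0.437% and 0.834% in RTN, and 0.175%, 0.13% and 0.156% in mPFC. Both hypercapnia groups of a region are set against the same 6 room air libraries, so their values below share those controls.

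In NTS, the synthesis, transport and motor neuron genes had higher medians in both hypercapnia groups than in room air, within wide spreads. CHAT had 0.971, 13 and 53.5 CPM in room air, 3.74, 30.8 and 77.2 CPM in mild and 11, 34.6 and 87.8 CPM in moderate hypercapnia. In each hypercapnia group 5 of 6 libraries lay above the room air median and the ranges overlapped. The moderate fold was 1.33 ± 0.70 log2 units, with an interval of -0.04 to 2.70 (adjusted p = 0.4), and the mild fold was 1.16 ± 0.70 (adjusted p = 0.85).

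SLC5A7 had 8.61, 41.9 and 155 CPM in NTS in room air, 13.9, 115 and 192 CPM in mild and 29.8, 119 and 259 CPM in moderate hypercapnia, again with 5 of 6 libraries of each hypercapnia group above the room air median. Its moderate fold of 1.36 ± 0.64, interval 0.11 to 2.62, had an adjusted p of 0.37. PRPH had 26.7, 272 and 1101 CPM in room air, 65.4, 868 and 1234 CPM in mild and 139.6, 857 and 1219 CPM in moderate hypercapnia, and the moderate fold was 1.08 ± 0.73 (adjusted p = 0.49). The same count of 5 of 6 libraries above the room air median held for SLC18A3, ACHE and ISL1 in both hypercapnia groups. For CHAT, SLC5A7, SLC18A3, ACHE and ISL1 alike, the library below it was NTS mild 2 or NTS moderate 1. These counts are therefore not independent of one another. SLC18A3 had a moderate fold of 1.09 ± 0.73 and ISL1 one of 1.06 ± 0.79 (adjusted p = 0.49 and 0.53), and ACHE one of 0.35 ± 0.15, interval 0.05 to 0.64 (adjusted p = 0.35).

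CHODL did not share this in NTS. It had 5.12, 17.1 and 27.9 CPM in room air, 11, 15.7 and 22 CPM in mild and 8.29, 12.9 and 16.3 CPM in moderate hypercapnia. All 6 moderate libraries lay below the room air median, yet inside the room air range. Its moderate fold was -0.40 ± 0.28 with an interval of -0.96 to 0.15 (adjusted p = 0.51). CHRM3 had all 6 mild libraries below the room air median, and its mild fold was -0.46 ± 0.31 (adjusted p = 0.85). CHRM2 had all 6 moderate libraries above the room air median, with a fold of 0.44 ± 0.30 (adjusted p = 0.49).

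The summed RNA of myelin genes in NTS also differed in median between the conditions. The sum of 9 oligodendrocyte and myelin genes was 7772, 15504 and 34724 CPM in room air (lowest, median and highest), 6382, 9051 and 21786 CPM in mild and 3957, 6915 and 14874 CPM in moderate hypercapnia. The sum of 6 neuron genes was 2804, 2872 and 3533 CPM in room air, 2574, 3586 and 4107 CPM in mild and 2893, 3530.3 and 4246 CPM in moderate hypercapnia. The sum of the 2 choroid plexus markers with a row also differed, at 1.23, 2.61 and 312 CPM in room air, 2.65, 13.4 and 52.6 CPM in mild and 3.7, 76 and 1669 CPM in moderate hypercapnia, and its part in the members' values was not tested. With the myelin level as a covariate the moderate folds were 0.20 for CHAT, 0.03 for SLC5A7 and 0.11 for ACHE (adjusted p = 1 each). Because the myelin sum itself shifted in median between the conditions, this fit cannot tell tissue composition from an effect of hypercapnia. The highest myelin sum, 34724 CPM, was that of NTS room air 1, the library with the lowest CHAT. Without it the moderate folds were 1.08 for CHAT, 1.14 for SLC5A7, 0.24 for ACHE and -0.58 for CHODL, and no member passed. NTS room air 5, the library with the highest CHAT of the room air group and its lowest myelin sum, 7772 CPM, moved the values the other way. Without it the moderate folds were 2.14 for CHAT, 2.04 for SLC5A7, 1.97 for SLC18A3, 1.92 for ISL1 and 1.74 for PRPH (adjusted p = 0.13 to 0.18), and the mild fold of CHAT was 1.97 (adjusted p = 0.4).

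In VRC, moderate hypercapnia had a higher fitted mean than room air for all 10 members, none past the threshold, and mild hypercapnia had no common direction. CHAT had 1.39, 2.58 and 5.02 CPM in room air, 1.3, 1.84 and 14 CPM in mild and 1.05, 6.16 and 13.9 CPM in moderate hypercapnia. The moderate group held both the lowest library of the region and libraries above the whole room air range, so it overlapped room air from both sides. The moderate fold was 1.13 ± 0.62, interval -0.07 to 2.34 (adjusted p = 0.87). ACHE had 310.3, 369 and 414 CPM in room air, 241, 366 and 390.0 CPM in mild and 269.8, 499 and 688 CPM in moderate hypercapnia. 5 of 6 moderate libraries lay above both other medians, and the fold was 0.44 ± 0.17 against room air (adjusted p = 0.86) and 0.56 ± 0.17 against mild (adjusted p = 0.16). Without VRC moderate 6, the lowest of the group, ACHE passed at 0.68 against mild (adjusted p = 0.024); no member passed between conditions without any other single library.

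The mild group in VRC turned on 1 library. VRC mild 3 had 14 CPM of CHAT, 97.1 of SLC5A7 and 458 of PRPH, whereas the other 5 mild libraries had 1.3 to 3.52 CPM of CHAT. With it, the mild fold of CHAT was 0.42 ± 0.62 and that of PRPH 0.95 ± 1.02 (adjusted p = 0.92 and 0.9). Without it, they were -0.60 and -0.53, and all 10 members had a negative fold. It also had the lowest myelin sum of its group, 35461 CPM, and the highest leukocyte marker sum, 78.4 CPM against a group median of 16; their part in its values was not tested. The moderate against mild fold of CHAT was 0.71 ± 0.61 with it (adjusted p = 0.59) and 1.73 without it (adjusted p = 0.26), and that of SLC5A7 was 0.38 ± 0.72 with it (adjusted p = 0.84) and 1.78 without it (adjusted p = 0.28). VRC room air 2 carried 223 CPM of PRPH; the PRPH folds were 0.95 in mild and 1.03 in moderate hypercapnia with it, and 2.17 and 2.25 without it.

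In RTN, where the synthesis and motor neuron genes had their highest room air medians, no member passed. CHAT had 32.2, 38.6 and 59.6 CPM in room air, 21.9, 31.9 and 70.7 CPM in mild and 9.95, 55.3 and 89.6 CPM in moderate hypercapnia. CHODL had 139.8, 169 and 258 CPM in room air, 64.3, 166 and 251 CPM in mild and 47.7, 193 and 320.3 CPM in moderate hypercapnia. Room air libraries lay close together, both hypercapnia groups spread more widely, and all 3 ranges overlapped. The moderate folds were 0.39 ± 0.36 for CHAT, interval -0.32 to 1.11 (adjusted p = 0.86), and 0.11 ± 0.37 for CHODL, interval -0.61 to 0.84 (adjusted p = 0.98). The lowest moderate library, RTN moderate 5, had 9.95 CPM of CHAT and 139 CPM of PRPH, the highest myelin sum of the region's moderate group, 41567 CPM, and the lowest neuron sum, 2373 CPM. Without it the moderate folds were 0.61 for CHAT (adjusted p = 0.6) and 0.32 for CHODL (adjusted p = 0.8). The folds of the other 7 members tested were then between 0.21 for ACHE and 0.53 for SLC18A3, and none passed. With this library kept, all 9 members tested had a positive moderate fold as well.

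In mPFC, ACHE had 65.6, 80.5 and 94.3 CPM in room air, 60.8, 80.5 and 95.5 CPM in mild and 64, 81.9 and 102 CPM in moderate hypercapnia. These ranges were almost the same, and the moderate fold of ACHE was 0.05 ± 0.12, interval -0.18 to 0.28 (adjusted p = 1). CHRM4 had 15.4, 18.2 and 27 CPM in room air, 13, 16 and 19.3 CPM in mild and 15, 17.6 and 21 CPM in moderate hypercapnia. In mild hypercapnia 5 of 6 libraries lay below the room air median, and the fold was -0.34 ± 0.14, interval -0.62 to -0.07 (adjusted p = 1).

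**Figure D3:**
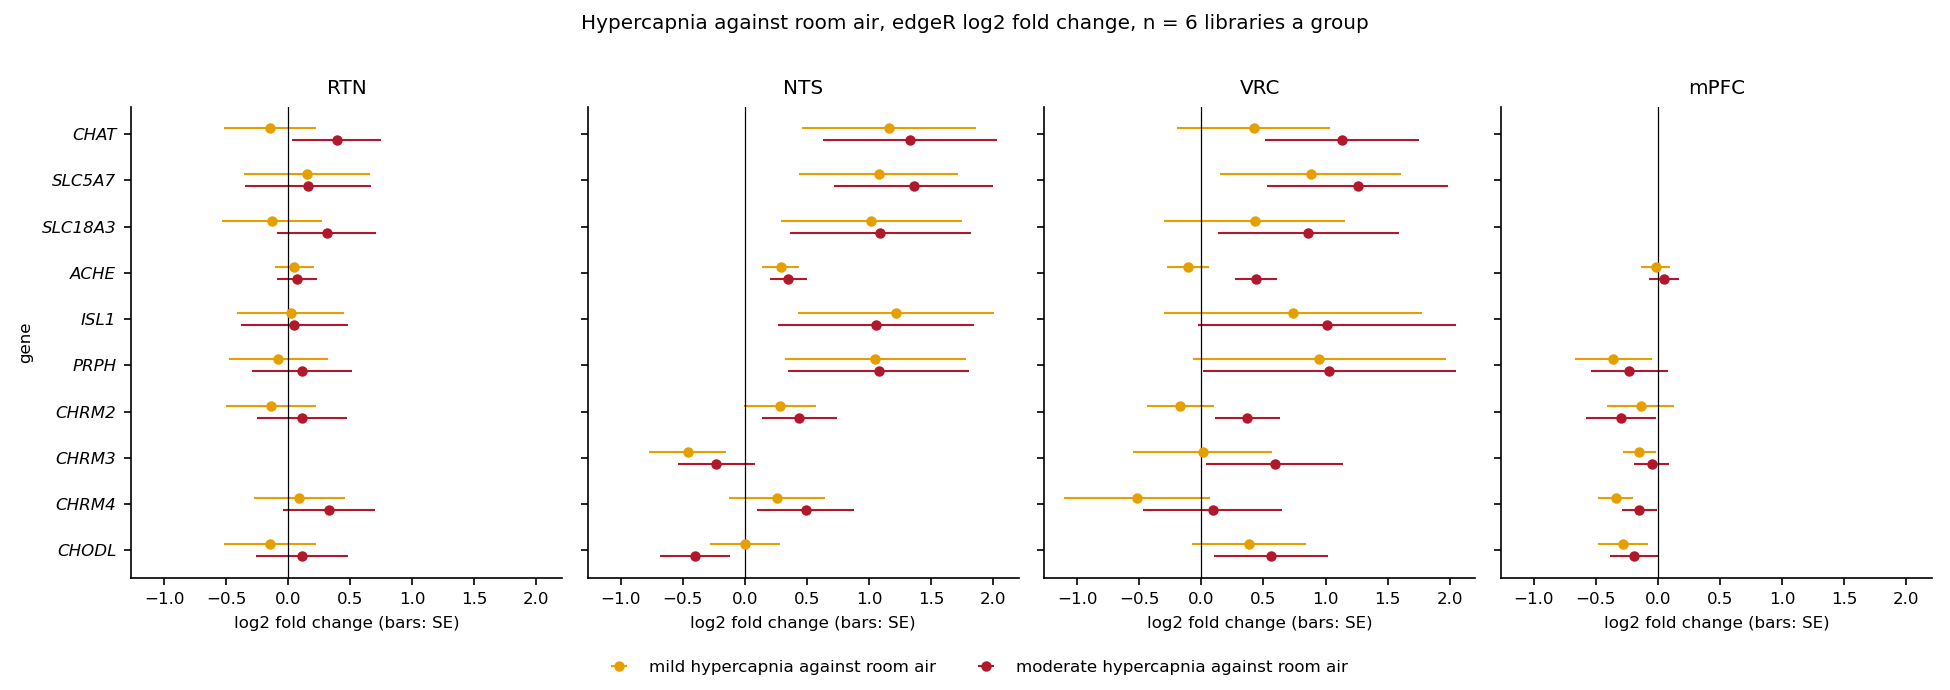
Log2 fold changes of mild and of moderate hypercapnia against room air for the members tested in each region, with bars of 1 standard error; members too low to test are left out. In NTS the values of CHAT, SLC5A7, SLC18A3, ISL1 and PRPH lie near 1 on the log2 scale with wide bars, and in mPFC and RTN most lie near 0.

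Whether the response to hypercapnia differed among the 4 regions was tested over all 72 libraries and 16372 genes. No member passed for mild or for moderate hypercapnia, nor did any other gene (0%), and no member had an unadjusted p under 0.05, against 2.4% of genes for mild and 3.83% for moderate. For SLC5A7 under moderate hypercapnia the unadjusted edgeR p was 0.13 (adjusted p = 1). A difference in response among regions was not detectable with these libraries.

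Pooled over the brainstem libraries, CHAT, SLC18A3, ISL1, SLC5A7 and PRPH varied together, and the other members did so less closely. Over the 54 brainstem libraries, after taking out region and condition means, CHAT was most like SLC18A3 among the members (r = 0.93), followed by ISL1, SLC5A7 and PRPH (0.89 each), then CHODL (0.73), CHRM2 (0.71), ACHE (0.61), CHRM4 (0.41) and CHRM3 (0.28). Among 11918 genes ranked this way SLC18A3 was the third, ISL1, SLC5A7 and PRPH were ranked 6, 7 and 8, and CHODL was ranked 122. The order differed in RTN alone, where SLC5A7 (r = 0.76) was looser than CHRM2 (0.90), ACHE (0.89) and CHODL (0.88). The 8 genes outside the list that were most like CHAT were CPNE6 and VAT1L (0.93 each), SLIT3 (0.91), SCN9A (0.90), RET (0.89), PTPN9 (0.88), and CACNB1 and PALM3 (0.87 each). The other motor neuron genes did not all go with CHAT: r ran from 0.89 for RET and 0.79 for NEFL to -0.42 for LHX1 and -0.48 for SPP1. These values are a description, since the libraries share depth and dissection.

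Within NTS alone, the Pearson correlation with CHAT over 18 libraries was 0.94 for SLC5A7, 0.96 for SLC18A3, 0.97 for ISL1 and 0.96 for PRPH (permutation p = 1.0e-05 each, the smallest that 100000 shuffles can give, and 6.6e-05 after adjustment over 33 pairs). Spearman's rho was 0.84, 0.92, 0.91 and 0.91 (permutation p = 1.0e-04, 2.0e-05, 1.0e-05 and 1.0e-05; adjusted at most 3.3e-04), and r was 0.90 to 0.93 without the 2 most extreme libraries, NTS room air 1 and NTS mild 2. CHODL was looser in NTS, with r = 0.65 (permutation p = 0.016, adjusted 0.022) and rho = 0.42 (permutation p = 0.12, adjusted 0.14), and r fell to 0.33 without those 2 libraries, so its relation rests on them. In RTN, by contrast, CHODL had r = 0.88 (permutation p = 7.0e-05, adjusted 1.8e-04) and rho = 0.87 (permutation p = 8.0e-05, adjusted 3.3e-04), and r = 0.78 without the 2 farthest, RTN moderate 5 and RTN mild 3. In VRC it had r = 0.86 (permutation p = 2.0e-05, adjusted 8.2e-05) and rho = 0.83 (permutation p = 8.0e-05, adjusted 3.3e-04), and 0.82 without the 2 farthest. For SLC5A7 r was 0.76 in RTN (permutation p = 0.0039, adjusted 0.0059) and 0.50 without the 2 farthest libraries. CHRM2 had r = 0.84 in NTS, 0.54 in VRC and 0.90 in RTN, and in RTN r was -0.23 for CHRM3 and -0.08 for CHRM4. The RTN libraries held only 1 to 19 reads of CHRM3 and 13 to 74 of CHRM4, so counting error weighs more on their r. The difference in correlation between regions was not tested.

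ACHE went with CHAT in NTS (r = 0.85, permutation p = 1.8e-04, adjusted 3.3e-04; rho = 0.69, permutation p = 0.0042, adjusted 0.0069; 0.67 without the 2 farthest) and in RTN (r = 0.89, permutation p = 2.6e-04, adjusted 4.3e-04; rho = 0.85, permutation p = 3.2e-04, adjusted 7.0e-04; 0.80 without them). In VRC it had r = 0.25 (permutation p = 0.45, adjusted 0.49) and rho = 0.04 (permutation p = 0.88, adjusted 0.94). The summed myelin level ran against CHAT in NTS, with r = -0.88 (permutation p = 3.0e-05, adjusted 1.1e-04), rho = -0.79 (permutation p = 6.1e-04, adjusted 0.0013) and r = -0.79 without the 2 farthest libraries. In RTN it had r = -0.77 (permutation p = 0.0017, adjusted 0.0026), rho = -0.67 (permutation p = 0.0077, adjusted 0.012) and -0.63 without the 2 farthest, and in VRC r = -0.39 (permutation p = 0.2, adjusted 0.23) and rho = -0.40 (permutation p = 0.14, adjusted 0.16). The sum of neuron genes went with CHAT in NTS (r = 0.75, permutation p = 5.0e-05, adjusted 1.4e-04) and in RTN (r = 0.91, permutation p = 2.0e-05, adjusted 8.2e-05). Without the 2 farthest libraries r was 0.75 in NTS and 0.79 in RTN. In VRC the neuron sum had r = -0.12 (permutation p = 0.69, adjusted 0.71). The genes in the neuron sum did not all go with CHAT over the 54 brainstem libraries. There r was 0.65 for STMN2, 0.40 for SYP, 0.31 for SYT1, 0.06 for SNAP25, -0.09 for ELAVL4 and -0.14 for RBFOX3. Libraries of the same number in different regions did not share their CHAT level: over 18 numbers r was 0.09 for NTS and VRC, -0.20 for NTS and RTN, and 0.10 for VRC and RTN, given as a description.

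**Figure D4:**
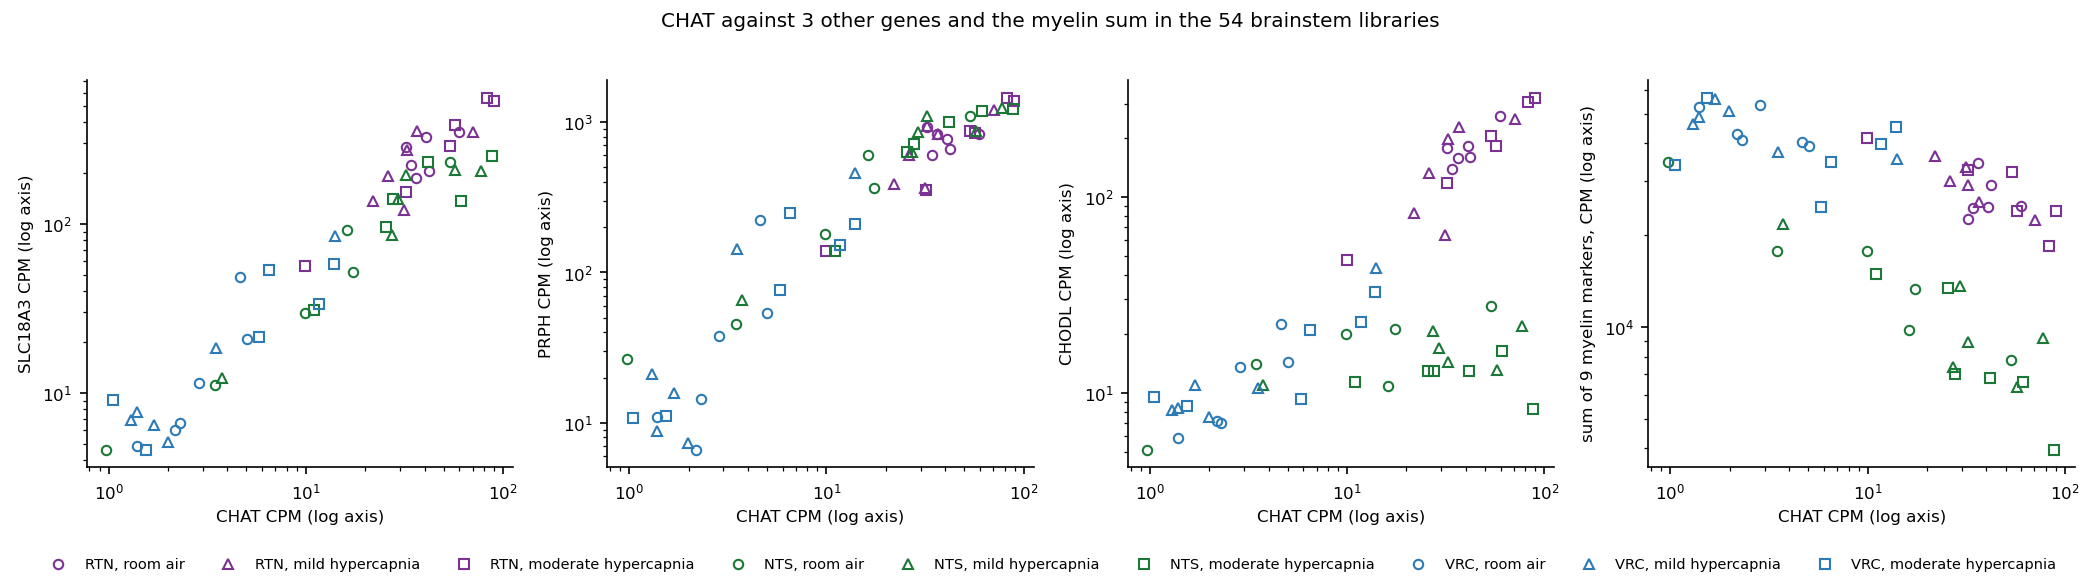
CHAT CPM on the x axis against SLC18A3, PRPH and CHODL CPM and the sum of 9 myelin genes, for 54 brainstem libraries on log axes, coloured by region. SLC18A3 and PRPH follow CHAT across all 3 regions. For CHODL the RTN libraries form a separate band between 47.7 and 320.3 CPM. It lies above the NTS libraries at 5.12 to 27.9 CPM and the VRC libraries at 5.89 to 43.5 CPM.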

How the data were processed

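Total RNA of 72 libraries was made into cDNA with the SMARTer Universal Low Input kit, per the labels' protocols. FastQC, Trimmomatic, STAR, featureCounts and edgeR are named in the submitters' processing notes, with genome build, tool versions and strand of counting not given in the sources used here. The deposited table holds whole-number read counts and RPKM values per gene made by the authors, with each gene's length; its RPKM values imply totals 1.0047 to 1.007 times the count sums. Of its 21343 genes 6643 have no symbol.

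Each region was fitted separately over 18 libraries (genes with enough reads by filterByExpr, minimum count 10, TMM factors) with edgeR 4.0.16 in R 4.3.3, using the quasi-likelihood test with Benjamini-Hochberg adjustment over all genes tested and a threshold of 0.05. Regions were compared over the 24 room air libraries, and the response among regions over all 72, by a joint test with 3 degrees of freedom. Nothing in the labels says that libraries of 1 number come from 1 animal, so libraries were treated as independent, and p-values measure the spread between them. CPM uses TMM-scaled library sizes. Correlations used log2 CPM with a prior count of 2, as deviations from condition means, with shuffles within conditions. Likeness to CHAT used genes with a mean of at least 1 CPM. Alternatives were DESeq2 1.42.0, limma 3.58.1 (voom with quality weights), RLE factors, no filter, the replicate number as a block, 2 groups alone, a myelin covariate and leaving out each library; edgeR's newer quasi-likelihood form was added after seeing the data. The main edgeR fit, DESeq2 and limma were tested on simulated data for NTS mild against room air and RTN against NTS. The joint test and the other alternatives were not. Named genes outside the members were the 4 with the smallest adjusted p per list, and the 8 most like CHAT. Members and lists were chosen with earlier results of these data known. Gene neighbours are from RefSeq (ARS1.2); all 10 members have a row there.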

Additional observations from a re-analysis of the deposited data

Results flagged for a closer look

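In 21 of the 120 combinations of gene, region and condition, the highest or lowest of the 6 libraries lay apart from the other 5 by Dixon's test at 95%. Chance flags about 1 in 20 groups if values are normally spread. The test used CPM without a log scale, and several members varied together. The 120 groups are therefore not independent, and the 2 rates cannot be set against each other as a measure of excess. VRC mild 3 was such a library for 6 genes, with 14 CPM of CHAT, 97.1 CPM of SLC5A7, 84.5 CPM of SLC18A3, 11.7 CPM of ISL1, 458 CPM of PRPH and 43.5 CPM of CHODL. VRC room air 2 was apart with 48.7 CPM of SLC18A3 and 223 CPM of PRPH. NTS room air 5 was apart with 53.5 CPM of CHAT and 155 CPM of SLC5A7. In RTN, room air 5 had 59.6 CPM of CHAT and 258 CPM of CHODL, room air 6 had 538 CPM of SLC5A7, and mild 3 had 70.7 CPM of CHAT. In mPFC, room air 1 was highest at 0.409 CPM of CHAT, 2.57 CPM of SLC5A7 and 2.69 CPM of SLC18A3, moderate 1 had 0.904 CPM of SLC18A3, mild 1 had 0.895 CPM of ISL1 and mild 5 had 18.6 CPM of CHRM2. The low library was mPFC room air 3, with 4.48 CPM of CHRM3.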

How the results depend on the processing

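No member passed between conditions under DESeq2, limma, RLE factors, no filter, the replicate block, 2 groups alone, the myelin covariate or edgeR's newer form. Without 1 library, 0 to 1 members passed for VRC moderate against mild, and 0 in the other 11. Between regions, 4 to 7 members passed for RTN against NTS and 5 to 9 for NTS against VRC without 1 library. For RTN against NTS, CHAT passed with limma (1.87), the newer form (1.30) and the block (1.76), PRPH passed with limma (1.66), ISL1 did not with DESeq2 (adjusted p = 0.1) and CHRM4 did not with no filter (0.052) or the block (0.0507). CHRM4 for RTN against VRC did not pass with limma (0.097), no filter (0.0513), the newer form (0.066) or the block (0.052). With limma ISL1 did not pass for VRC against mPFC (0.24) or NTS against VRC (0.06).

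Signs turned mostly in VRC mild against room air: with limma CHAT was -0.32, SLC5A7 -0.19, SLC18A3 -0.25, ISL1 -0.13, PRPH -0.02 and CHODL -0.04, and with the block CHAT was -0.06, SLC18A3 -0.05 and CHRM3 -0.03. CHODL in NTS mild was 0.01 with limma and 0.06 with the block, and CHRM4 in VRC moderate was -0.04 with the block. With the myelin covariate ISL1 was -0.09 in NTS moderate against room air, and ISL1 was -0.10 and PRPH -0.35 in VRC moderate against mild. Without 1 library, VRC mild folds ran -0.60 to 0.62 for CHAT, -0.53 to 1.25 for SLC5A7, -0.85 to 1.15 for SLC18A3, -0.96 to 1.66 for ISL1, -0.53 to 2.17 for PRPH, -0.34 to 0.29 for CHRM3 and -0.33 to 0.66 for CHODL. CHODL in NTS mild ran -0.19 to 0.20 and CHRM4 in VRC moderate -0.29 to 0.30. VRC moderate against mild ran -0.02 to 1.78 for SLC5A7, -0.03 to 1.97 for ISL1, -0.28 to 1.55 for PRPH and -0.08 to 0.90 for CHODL, and ACHE for RTN against NTS ran -0.15 to 0.07. The causes were not tested.

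Counts of all genes that passed moved too: for NTS moderate against room air 1 gene in the edgeR test and 19 with DESeq2, for VRC moderate against mild 0 and 253, and for RTN moderate against mild 0 and 128. The replicate numbers were not taken to pair libraries, because the labels do not tie them to animals. Across conditions of a region, the median correlation of libraries with the same number was 0.02, with 22 of 72 above 0.1. Those of different regions in room air had 0.24, with 33 of 36 above 0.1. Across regions of a condition, 70 of 72 libraries were closest to their own number. The main fits between regions leave this likeness out, and the block takes it in. With the block, 7 members passed for RTN against NTS, 8 for RTN against VRC and 8 for NTS against VRC. Depth limits CHAT, ISL1, SLC5A7 and SLC18A3 in mPFC, ISL1 and CHRM4 in VRC, and LHX3 in mPFC and NTS, where at least 1 library holds 0 reads.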
